A study of Homo sapiens with 6 samples.

Results

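The genes described here are 10 genes of the mesenchymal program, namely the transcription factors SNAI1, SNAI2, TWIST1, TWIST2, ZEB1 and ZEB2, the intermediate filament gene VIM and the cadherin genes CDH1, CDH2 and CDH11. They were chosen by name, and each was read from a probe set annotated to that symbol only, the brightest one over the arrays where a gene had several. All 10 were found among 18417 genes measured this way. The arrays came from U-87, an established human glioma line (tissue label brain), as 3 arrays of cells labelled P68 Knockdown and 3 of cells labelled P68 Wild Type. P68 is the RNA helicase encoded by DDX5. The cells were transfected with siP68, the siRNA that targets P68, or with NC, a name that the labels neither spell out nor tie to the wild-type arrays. Both groups grew in DMEM with fetal bovine serum, and all of the arrays come from this one line. Whether the 3 arrays of a group are separate cultures is not stated, so p-values reflect only how far these arrays scatter, which may be technical.

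Snail, Twist and Zeb factors bind E-box motifs, and in carcinoma cells they repress CDH1 and other epithelial genes while N-cadherin and vimentin are made, a change called the epithelial-mesenchymal transition. Glioma cells are not epithelial. There the same factors are studied for their part in migration and invasion, and CDH2 and VIM belong to the ordinary make-up of glial cells. In carcinoma cells P68 has been linked to SNAI1 transcription in connection with the NuRD repressor complex, and P68 also takes part in microRNA processing.

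None of the 10 genes passed an adjusted p of 0.05 between knockdown and wild type by limma, and none of all 18417 genes did (0%). TWIST2 was higher on every knockdown array than on any wild-type array, and CDH11 had the largest difference of the 10, with a lower mean in knockdown cells. Both had an unadjusted p under 0.05, which makes 2 of the 10 genes, against 5.09% of all genes (937 of 18417). TWIST2 was also the 1 gene of the 10 whose groups did not overlap, against 10.1% of all genes, or 5.98% with the knockdown higher. The remaining 8 genes differed by -0.20 to 0.22 on the log2 scale. Every 95% confidence interval of the 10 lay between -0.75 and 0.53, so none of these intervals reached a 2-fold difference in either direction. The median difference of the 10 genes was -0.08 and their median absolute difference 0.14, against 0.01 and 0.09 over all genes. In RNA from whole cultures, fewer cells with a transcript and less of it per cell cannot be told apart.

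DDX5 itself was at 9.47, 9.79 and 9.91 on the knockdown arrays, against 10.09, 10.25 and 10.30 on the wild-type arrays, so the mean knockdown signal was 71.2% of wild type. The 95% confidence interval was 58.4% to 86.9%. The unadjusted p was 0.00337 and the adjusted p 0.902 by limma, so the targeted gene did not pass the threshold either. Over all probe sets, 2 arrays of any kind correlated with r = 0.979 to 0.990. As a gauge of signal from genes that are mostly silent, 341 olfactory receptor genes had a median mean signal of 3.06 and a 95th percentile of 4.72. Of the 10 genes, SNAI1, SNAI2 and CDH1 lay under that percentile and the other 7 above it. Probe sets differ in how well they bind, so this gauge gives no order of expression between genes. Of 8 astrocyte and glial markers 2 lay above it, GFAP and GJA1, while S100B, AQP4 and SLC1A3 lay below.

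**Figure D1:**
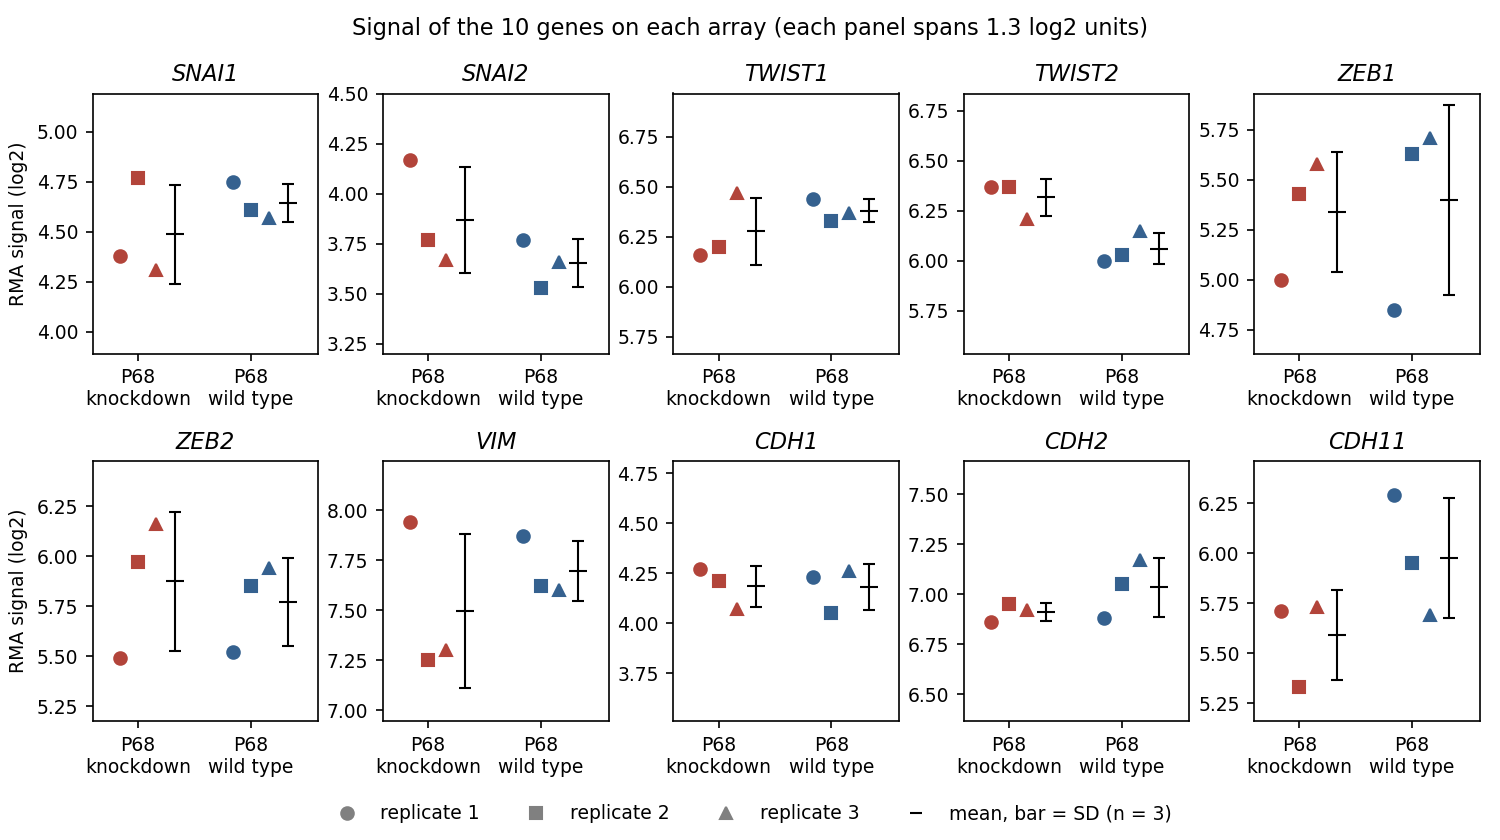
RMA signal (log2) of each of the 10 genes on the 3 P68 knockdown arrays (left, red) and the 3 P68 wild-type arrays (right, blue), with the mean and SD beside each group and a symbol for each replicate number. The groups are apart for TWIST2 only, and the replicate 1 arrays of both groups are low for ZEB1 and ZEB2 and high for VIM.

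SNAI1 encodes Snail, the zinc finger repressor known for its repression of the E-cadherin gene. Its signal was 4.38, 4.77 and 4.31 on the knockdown arrays, against 4.75, 4.61 and 4.57 on the wild-type arrays. Knockdown replicate 2 was the highest of all 6 arrays and the other two knockdown arrays the lowest, so the groups overlapped. The means were 4.49 ± 0.25 in knockdown cells and 4.64 ± 0.09 in wild-type cells (SD, n = 3 per group), a log2 difference of -0.16 ± 0.13 (SE, adjusted p = 0.912). With 1 array left out the difference ran from -0.30 without knockdown replicate 2 (unadjusted p = 0.0232, adjusted p = 0.994, limma) to -0.068 without knockdown replicate 3 (unadjusted p = 0.645, limma), and it was -0.10 without replicate 1 of either group.

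SNAI2 encodes Slug, a related repressor active in neural crest cells. It was at 4.17, 3.77 and 3.67 on the knockdown arrays and at 3.77, 3.53 and 3.66 on the wild-type arrays. Knockdown replicate 1 stood above the rest, and without it the log2 difference of 0.22 ± 0.14 (SE, adjusted p = 0.902) became 0.07. SNAI2 was among the dimmest 40% of genes, where signal cannot be told from background with the values used here.

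TWIST1 and TWIST2 encode closely related basic helix-loop-helix factors of mesoderm and neural crest. TWIST2 gave 6.37, 6.37 and 6.21 in knockdown cells, against 6.00, 6.03 and 6.15 in wild-type cells. The groups were apart by 0.06, the gap between knockdown replicate 3 and wild-type replicate 3. The knockdown mean was 6.32 ± 0.09 and the wild-type mean 6.06 ± 0.08 (SD, n = 3 per group), and the log2 difference was 0.26 ± 0.10 (SE), with an unadjusted p of 0.0302 and an adjusted p of 0.902 by limma. Knockdown signal was 119% of wild type (95% confidence interval, 102% to 140%). An exact permutation test (two-sided) gave p = 0.1, and no smaller value is possible with 3 arrays per group. Leaving out any 1 array kept the difference between 0.23 and 0.31, and its unadjusted limma p was 0.0684 to 0.0871 without replicate 1 or 2 of either group.

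TWIST1 was at 6.16, 6.20 and 6.47 on the knockdown arrays and at 6.44, 6.33 and 6.37 on the wild-type arrays. Knockdown replicates 1 and 2 were the lowest of the 6 arrays and knockdown replicate 3 the highest. The log2 difference was -0.10 ± 0.11 (SE, adjusted p = 0.924), and it shrank to -0.045 once knockdown replicate 1 was left out and reached -0.20 once knockdown replicate 3 was. Subtracting TWIST1 from TWIST2 on each array gave 0.21, 0.17 and -0.26 in knockdown cells, against -0.44, -0.30 and -0.22 in wild-type cells. This balance overlapped between the groups, through knockdown replicate 3. Its shift of 0.36 was not tested.

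ZEB1 and ZEB2 encode large factors with a zinc finger cluster at either end, which bind paired E-boxes and recruit the corepressor CtBP. ZEB1 gave 5.0, 5.43 and 5.58 in knockdown cells, against 4.85, 5.63 and 5.71 in wild-type cells. ZEB2 gave 5.49, 5.97 and 6.16 in knockdown cells, against 5.52, 5.85 and 5.94 in wild-type cells. For both genes the replicate 1 array was the lowest of its group in knockdown cells and in wild-type cells. The log2 differences were -0.06 ± 0.22 for ZEB1 and 0.10 ± 0.17 for ZEB2 (SE), with adjusted p-values of 0.981 and 0.944. Each changed sign when single arrays were left out, with ZEB1 between -0.33 (wild-type replicate 1 left out) and 0.11 (knockdown replicate 1 left out), and ZEB2 between -0.04 (knockdown replicate 3 left out) and 0.295 (knockdown replicate 1 left out).

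The spread of ZEB1 within the groups was large, with a pooled SD of 0.40 that exceeded that of 98.7% of genes, against a median of 0.14 over all genes. ZEB2 had 0.29 and VIM 0.29, also above 94.1% and 94.4% of genes. Over the 6 arrays ZEB1 and ZEB2 correlated with r = 0.86, and ZEB2 and VIM with r = -0.92, as a description of arrays that share their RNA and scaling. A further ZEB2 probe set was dim at 2.33 ± 0.28 in knockdown cells and 2.35 ± 0.07 in wild-type cells (SD, n = 3 per group), a log2 difference of -0.02.

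**Figure D2:**
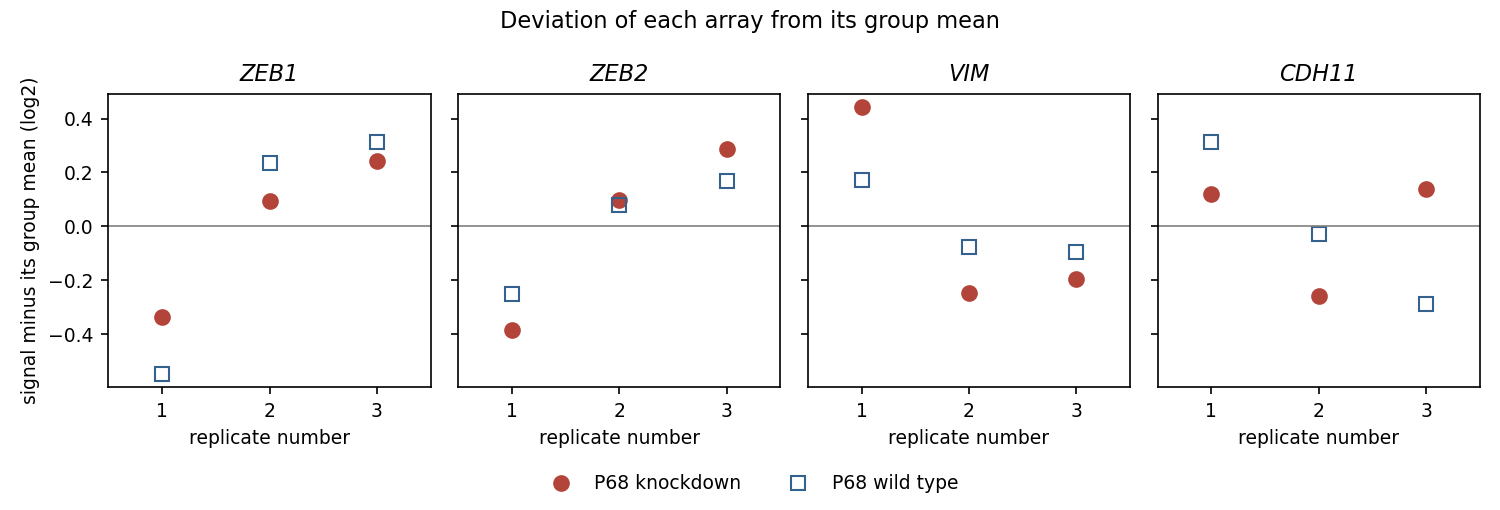
Signal minus its group mean (log2) of ZEB1, ZEB2, VIM and CDH11 by replicate number, for P68 knockdown (filled circles) and P68 wild-type arrays (open squares). Both replicate 1 arrays lie below their group mean for ZEB1 and ZEB2 and above it for VIM, while for CDH11 the replicate 3 arrays lie on opposite sides.

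Promoter windows from RefSeq (GRCh38.p14), 250 bases before to 50 bases after an annotated start, were matched for 5 of the 10 genes, TWIST2, ZEB1, ZEB2, VIM and CDH2, with 12 windows in all. They were searched for the E-box CACCTG on both strands, that is CACCTG or CAGGTG, which do not overlap each other in these windows. The motif was found in 2 of the 12 windows, both among the 7 of ZEB1, against 20.6% of 35116 windows of the same length. One ZEB1 window held 3 matches, as did or exceeded 0.635% of all windows, with first bases 242 and 85 bases before and at base 34 after its start. That window is shown with those of ZEB2, whose arrays ran with those of ZEB1, and of TWIST2, whose groups were apart. Capitals mark the E-box matches, and the ZEB2 and TWIST2 windows hold none. A match describes letters only.
ZEB1, chr10:31318966-31319265, plus strand: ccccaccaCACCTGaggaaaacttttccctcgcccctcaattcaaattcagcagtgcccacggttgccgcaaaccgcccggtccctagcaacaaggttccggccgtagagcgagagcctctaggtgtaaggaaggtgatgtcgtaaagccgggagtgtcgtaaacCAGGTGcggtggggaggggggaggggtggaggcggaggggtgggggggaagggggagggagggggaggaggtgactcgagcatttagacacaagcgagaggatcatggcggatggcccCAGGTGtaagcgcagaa
ZEB2, chr2:144520070-144520369, minus strand: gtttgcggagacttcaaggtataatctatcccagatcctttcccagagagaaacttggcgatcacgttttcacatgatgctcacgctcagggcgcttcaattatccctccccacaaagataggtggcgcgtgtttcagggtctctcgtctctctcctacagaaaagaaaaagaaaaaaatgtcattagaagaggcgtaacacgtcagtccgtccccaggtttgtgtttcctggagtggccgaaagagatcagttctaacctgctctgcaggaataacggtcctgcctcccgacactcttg
TWIST2, chr2:238847835-238848134, plus strand: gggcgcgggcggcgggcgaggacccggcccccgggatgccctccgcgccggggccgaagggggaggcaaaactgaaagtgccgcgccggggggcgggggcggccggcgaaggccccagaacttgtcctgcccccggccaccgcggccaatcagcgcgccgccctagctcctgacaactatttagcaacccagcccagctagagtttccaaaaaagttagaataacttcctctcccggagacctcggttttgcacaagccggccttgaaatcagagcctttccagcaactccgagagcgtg

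MicroRNAs of the miR-200 family repress ZEB1 and ZEB2, whose products in turn repress the miR-200 genes. The mature strands are shown because their seeds, bases 2 to 8 in capitals, define the Zeb sites they pair with. They fall into 2 groups that differ at one seed base (RefSeq, GRCh38.p14). The group with the seed AACACUG holds miR-141-3p and miR-200a-3p, and that with AAUACUG holds miR-200b-3p, miR-200c-3p and miR-429.
hsa-miR-141-3p: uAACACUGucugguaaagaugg
hsa-miR-200a-3p: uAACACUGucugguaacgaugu
hsa-miR-200b-3p: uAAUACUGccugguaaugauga
hsa-miR-200c-3p: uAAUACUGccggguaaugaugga
hsa-miR-429: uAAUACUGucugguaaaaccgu

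The arrays carry a probe set for each of these 5 genes, which reads the gene's transcript and not the mature strand. This list was added after the values were seen. None of the 5 passed the threshold, and 4 lay under the olfactory receptor percentile. MIR200B, the 1 above it, was at 4.95, 5.15 and 4.94 in knockdown cells, against 5.03, 5.21 and 4.83 in wild-type cells, and its groups overlapped. MIR200C differed most, at 4.77 ± 0.12 in knockdown cells and 4.49 ± 0.34 in wild-type cells (SD, n = 3 per group), with an adjusted p of 0.902.

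VIM encodes vimentin, the main intermediate filament of mesenchymal and immature glial cells. It gave 7.94, 7.25 and 7.30 in knockdown cells, against 7.87, 7.62 and 7.60 in wild-type cells. Replicate 1 was the brightest array of each group, and the other two knockdown arrays were below every wild-type array. The log2 difference of -0.20 ± 0.17 (SE, adjusted p = 0.912) became -0.42 without knockdown replicate 1 (unadjusted p = 0.00663, adjusted p = 0.661, limma), while it was -0.08 when knockdown replicate 2 was left out.

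CDH1 encodes E-cadherin, the cadherin of epithelia and the classical target of Snail and Zeb repression. It gave 4.27, 4.21 and 4.07 in knockdown cells, against 4.23, 4.05 and 4.26 in wild-type cells. The groups lay over each other, with a knockdown mean of 4.18 ± 0.10 and a wild-type mean of 4.18 ± 0.11 (SD, n = 3 per group). The difference of 0.003 on the log2 scale had a 95% confidence interval of -0.24 to 0.24, or 85.0% to 118% of wild type. CDH1 was among the dimmest 40% of genes, so these values bear on a signal that cannot be told from background.

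CDH2 encodes N-cadherin, the type I cadherin of neural and mesenchymal cells. It was at 6.86, 6.95 and 6.92 on the knockdown arrays and at 6.88, 7.05 and 7.17 on the wild-type arrays. Wild-type replicate 1 lay within the knockdown range and the other two wild-type arrays above it. The knockdown mean was 6.91 ± 0.05 and the wild-type mean 7.03 ± 0.15 (SD, n = 3 per group), a log2 difference of -0.12 ± 0.11 (SE, adjusted p = 0.912) that became -0.055 without wild-type replicate 3 and -0.20 without wild-type replicate 1.

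CDH11 encodes OB-cadherin, a type II cadherin of bone-forming and other mesenchymal cells. Its signal was 5.71, 5.33 and 5.73 in knockdown cells, against 6.29, 5.95 and 5.69 in wild-type cells. Wild-type replicates 1 and 2 were above all knockdown arrays, and wild-type replicate 3 lay below 2 of them. The knockdown arrays averaged 5.59 ± 0.23 and the wild-type arrays 5.98 ± 0.30 (SD, n = 3 per group), and the log2 difference was -0.39 ± 0.16 (SE), with an unadjusted p of 0.0389 and an adjusted p of 0.902 by limma. Knockdown signal was 76.5% of wild type (95% confidence interval, 59.5% to 98.4%). The difference was -0.23 without wild-type replicate 1 (unadjusted p = 0.168, limma), -0.26 without knockdown replicate 2 (unadjusted p = 0.157, limma), and -0.53 without wild-type replicate 3. Its unadjusted limma p was 0.0704 when wild-type replicate 2 was left out. The exact permutation test (two-sided) gave p = 0.3.

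Among 9208 genes of at least median signal, the 3 whose signal followed that of CDH11 most closely over the 6 arrays were YIPF5, EFNA5 and MMP16. Pearson's r was 0.996, 0.992 and 0.986, as a description of 6 arrays, and 33 genes of those searched reached at least 0.95. EFNA5 encodes an ephrin ligand and MMP16 a membrane-bound metalloproteinase. MMP16 was at 6.11, 5.97 and 6.12 in knockdown cells, against 6.37, 6.25 and 6.07 in wild-type cells, and like CDH11 it was lowest on knockdown replicate 2 and highest on wild-type replicate 1.

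**Figure D3:**
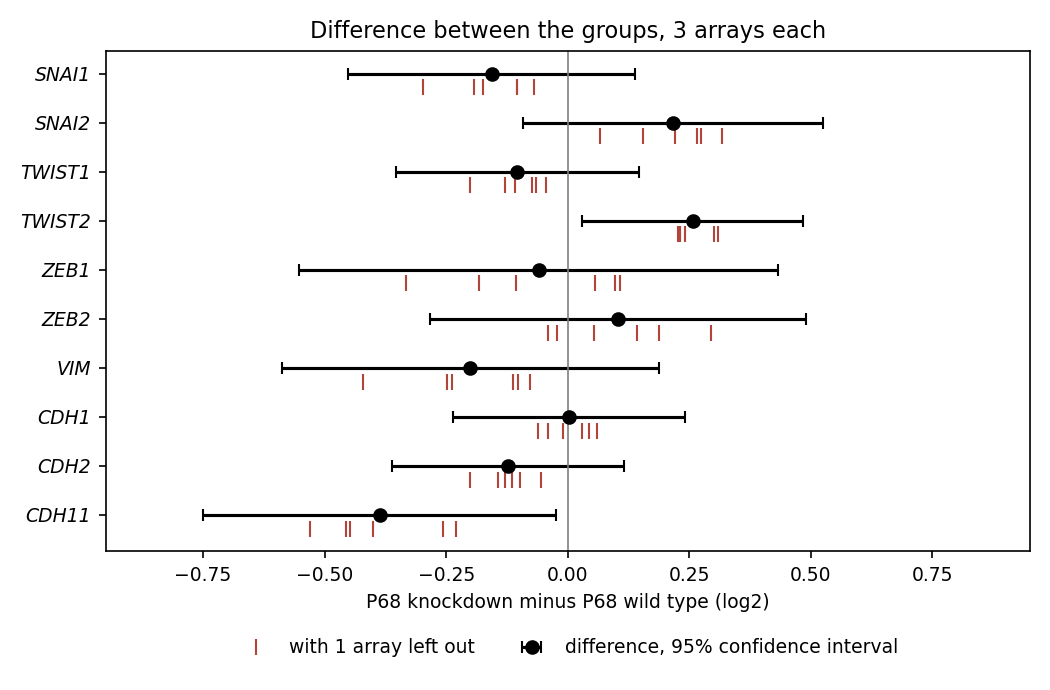
Log2 difference of each of the 10 genes, P68 knockdown minus P68 wild type, with its 95% confidence interval from limma (black) and the values with 1 array left out (red ticks). The intervals of TWIST2 and CDH11 leave out 0 before any adjustment over genes, and the ticks of ZEB1, ZEB2 and CDH1 lie on both sides of 0.

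The wider program was read from lists of genes that exclude the 10, and no gene of any list passed the threshold. Of 14 other type I and type II cadherins, 8 lay above 0 and 6 below, and their median was 0.07 against 0.01 over all genes (0.03 when knockdown replicate 1 was left out, 0.12 when replicate 3 was). Of these 14, 9 lay under the olfactory receptor percentile. CDH20, a neural type II cadherin, differed most, at 4.12 ± 0.23 in knockdown cells and 3.68 ± 0.07 in wild-type cells (SD, n = 3 per group), an unadjusted p of 0.0062 and an adjusted p of 0.902 by limma. CDH20 was among the dimmest 40% of genes. CDH15, the muscle cadherin, named after its values were seen, was at 6.03, 6.00 and 6.00 in knockdown cells, against 5.74, 5.70 and 5.77 in wild-type cells, with an unadjusted p of 0.0147. CDH15 and CDH20 were the 2 of 14 cadherins under an unadjusted p of 0.05, against 5.09% of all genes, and the 2 whose groups did not overlap with the knockdown higher, against 5.98% of all genes. CDH12, a type II cadherin also named after its values were seen and among the dimmest 40% of genes, did not overlap the other way, at 2.45, 2.47 and 2.44 in knockdown cells, against 2.54, 2.89 and 2.60 in wild-type cells. It was the 1 of 14 cadherins with such groups, against 4.15% of all genes.

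Catenins link cadherins to actin. Of 12 catenins and junction partners, 5 lay above 0 and 6 below, with a median of -0.005. Without knockdown replicate 3 the median was -0.06 with 8 below 0, and without knockdown replicate 1 it was -0.012 with 9 below 0. CTNNB1, which encodes beta-catenin, was at 9.33, 9.33 and 9.35 in knockdown cells, against 9.40, 9.70 and 9.54 in wild-type cells. All knockdown arrays were below the wild-type arrays, with a log2 difference of -0.21 ± 0.11 (SE, adjusted p = 0.902). CTNNA1, which encodes alpha-catenin, was likewise below on all knockdown arrays, at 7.47 ± 0.02 in knockdown cells and 7.62 ± 0.06 in wild-type cells (SD, n = 3 per group, adjusted p = 0.902). Groups that do not overlap with the knockdown lower were found for 4.15% of all genes, and for 2 of these 12.

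Epithelial genes lay on both sides of 0. Of 17, 10 lay above 0 and 6 below (median 0.03, or -0.008 when knockdown replicate 2 was left out and 0.13 when replicate 1 was), and 9 lay under the olfactory receptor percentile. EPCAM, an epithelial adhesion molecule, was at 3.20 ± 0.14 in knockdown cells and 3.25 ± 0.27 in wild-type cells (SD, n = 3 per group). Of 12 mesenchymal effectors 5 lay above 0 and 7 below (median -0.05, or 0.01 when knockdown replicate 3 was left out and -0.13 when replicate 1 was). Of these 12, 6 lay under the olfactory receptor percentile. FN1, the matrix protein fibronectin, was at 4.61, 4.54 and 4.76 in knockdown cells, against 4.78, 4.93 and 4.83 in wild-type cells, apart by 0.02 with an adjusted p of 0.902. LOX, a collagen crosslinking enzyme, differed most of this list, at -0.30 ± 0.17 (log2 difference ± SE, adjusted p = 0.902). A pair of effectors above 0, ACTA2 and TAGLN, was named after the values were seen. So were CNN1, CALD1, TPM1 and TPM2 of the same list, which lay below 0, at log2 differences of -0.09, -0.09, -0.01 and -0.08. ACTA2, a smooth muscle actin, was at 5.58, 5.56 and 5.59 in knockdown cells, against 5.30, 5.53 and 5.35 in wild-type cells, with groups that did not overlap, and TAGLN, an actin-binding protein among the dimmest 40% of genes, gave 0.22 ± 0.16 (log2 difference ± SE, adjusted p = 0.907). Of the 12 effectors, 1 was apart with the knockdown higher, against 5.98% of all genes, and 1 with it lower, against 4.15%.

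Of 14 other intermediate filament genes, 6 lay above 0 and 8 below (median -0.02, or 0.07 without wild-type replicate 1). NES, the filament of neural progenitors, was at 5.83 ± 0.11 in knockdown cells and 5.73 ± 0.14 in wild-type cells, and GFAP, that of astrocytes, at 5.57 ± 0.29 on the knockdown and 5.66 ± 0.11 on the wild-type arrays (SD, n = 3 per group). KRT19, an epithelial keratin, differed most, at 5.81, 5.90 and 5.59 in knockdown cells, against 5.34, 5.42 and 5.54 in wild-type cells. Its unadjusted p was 0.0151 and its adjusted p 0.902 by limma. KRT19 was the 1 gene of these 14 under an unadjusted p of 0.05, against 5.09% of all genes. Groups that did not overlap with the knockdown higher were found for 2 of the 14, against 5.98% of all genes. Of 9 other transcription factors of the program, 7 lay above 0 and 2 below (median 0.10, or 0.03 when knockdown replicate 2 was left out and 0.16 when replicate 3 was), led by the forkhead factor FOXC2 at 0.19 ± 0.12 (log2 difference ± SE), while TCF4, an E-protein partner of Twist, gave -0.10 ± 0.13.

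The partners through which the factors repress lay mostly below 0, where the median was 0.01 over all genes and -0.08 over the 10 genes. These counts of direction were not tested. Of 11 corepressors of Snail, Zeb and Twist factors, 10 lay below 0 and 1 above (median -0.09, or -0.14 without knockdown replicate 1). CTBP2 differed most, at -0.23 ± 0.15, while CTBP1 gave -0.08 ± 0.11 and the deacetylase HDAC1 gave 0.01 ± 0.17 (log2 difference ± SE). Of 13 NuRD genes, which share HDAC1 and HDAC2 with that list, 9 lay below 0 (median -0.08, or -0.03 without wild-type replicate 2 and with array weights), with MBD2, a reader of methylated DNA, at -0.18 ± 0.11. No gene of either list had an unadjusted p under 0.05 by limma.

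Snail protein is short-lived, since GSK3B marks it for the ubiquitin ligase that contains BTRC. Of 10 genes that govern its turnover, 8 lay below 0 and 2 above (median -0.20, between -0.225 and -0.15 with any 1 array left out). GSK3B was at 8.28, 7.96 and 8.29 in knockdown cells, against 8.29, 8.50 and 8.42 in wild-type cells, with an adjusted p of 0.902. BTRC differed most, at -0.29 ± 0.16 (log2 difference ± SE). The 1 gene of the list with an unadjusted p under 0.05, USP27X, which removes ubiquitin from Snail, was named after its values were seen. This is 1 of 10 genes, against 5.09% of all genes. USP27X was at 4.97 ± 0.06 in knockdown cells and 5.23 ± 0.16 in wild-type cells (SD, n = 3 per group, unadjusted p = 0.0396, adjusted p = 0.902, limma). The list thus pools genes with opposite effects on Snail, such as BTRC of the ubiquitin ligase and USP27X, which removes ubiquitin. Its median gives no direction for Snail protein, which these arrays do not measure. The median of all genes differed by 0.01, and the array values are scaled to a common distribution, so these are differences relative to most genes.

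Markers of other cell types were read on the same arrays. All 8 fibroblast and pericyte markers had differences (knockdown minus wild type) above 0, with a mean level of 4.41 to 4.54 on the knockdown arrays and 4.28 to 4.35 on the wild-type arrays, and 5 of the 8 lay under the olfactory receptor percentile. For 6 neuron markers, 4 above 0, the level was 4.17 to 4.31 on the knockdown and 4.08 to 4.12 on the wild-type arrays. For 8 glial markers, 5 above 0, it was 4.05 to 4.14 on the knockdown and 3.93 to 4.04 on the wild-type arrays. Endothelial markers (5 of 6 above 0) ran from 3.88 to 4.08 on the knockdown arrays and from 3.88 to 3.97 on the wild-type arrays. Immune markers (2 of 5 above 0) ran from 3.66 to 3.70 in the knockdown arrays and from 3.59 to 3.71 in the wild-type arrays. Surface epithelium markers (5 of 6 above 0) were at 4.95 to 5.03 on the knockdown arrays and at 4.80 to 4.96 on the wild-type arrays. The markers under an unadjusted p of 0.05, against 5.09% of all genes, were 2 of the 8 glial, 1 of the 6 neuron and 1 of the 5 immune markers, named after their values were seen. FABP7, a fatty acid binding protein of radial glia, gave 0.43 ± 0.11, AQP4, the water channel of astrocytes, 0.37 ± 0.11, STMN2, a neuronal microtubule regulator, 0.32 ± 0.11, and CD14, a monocyte receptor, 0.42 ± 0.13 (log2 difference ± SE, adjusted p = 0.902 for each, limma). All 4 were higher on every knockdown array than on any wild-type array and lay among the dimmest 40% of genes. SLC1A3, a glial glutamate transporter and as dim, was lower on every knockdown array, at -0.17 ± 0.10. The collagen genes COL1A1 and COL3A1 and the neuronal SYT1 also had groups that did not overlap, with the knockdown higher. Such groups were found for 2 of 8 glial, 2 of 6 neuron, 2 of 8 fibroblast and pericyte and 1 of 5 immune markers. No endothelial or surface epithelium marker had them, and the share over all genes was 5.98%. With the knockdown lower it was 1 of 8 glial markers, against 4.15% of all genes. No marker passed the threshold, and the part of these shifts in the values above was not tested.

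**Figure D4:**
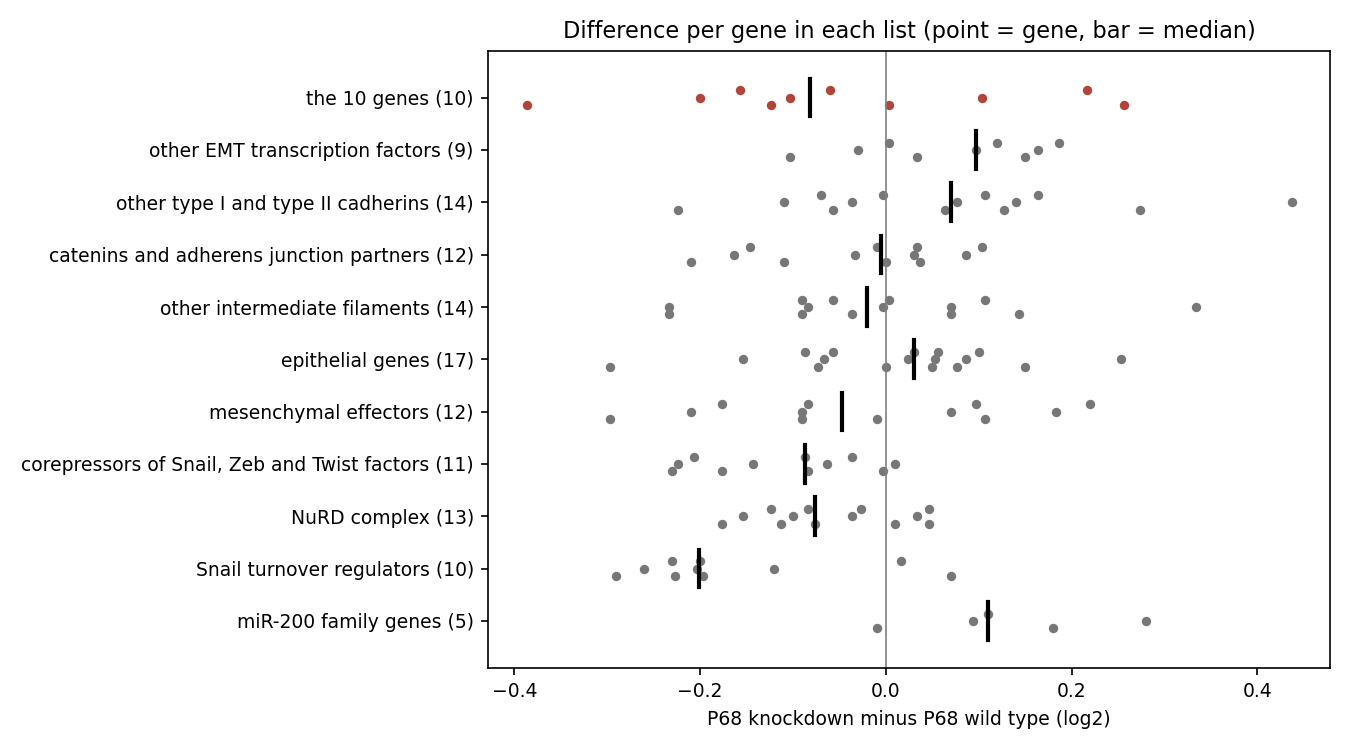
Log2 difference (P68 knockdown minus P68 wild type) of every measured gene of each list, with the list's median as a black bar and the number of genes in brackets. The lists of cell type markers are not shown. The 10 genes run from -0.39 to 0.26, with a median of -0.08. Medians below 0 are also seen for the corepressors, NuRD and Snail turnover genes, and nearer 0 for mesenchymal effectors, other intermediate filaments and catenins.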

How the data were processed

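Gene-level Affymetrix arrays of 3 P68 knockdown and 3 P68 wild-type samples were analysed. The deposited values are log2 signals that the authors made with RMA, per the submitters' processing notes. Its software version is not given in the sources used here, nor is a filter. RMA equalises the distribution of signals over arrays and so hides any shift that most genes have in common. Of 29096 probe sets, 19460 carried 1 gene symbol, 1754 several and 7882 none in the platform annotation. Per gene the probe set with the highest mean was kept, and all 10 genes matched RefSeq by gene identifier. Knockdown was compared with wild type by limma 3.58.1 in R 4.3.3 (two-sided moderated test, group as the only term) on 18417 genes, with Benjamini-Hochberg adjustment over all genes and a threshold of 0.05. The number of arrays limits the precision.

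The 10 genes and the lists were chosen with earlier results of these data known. Genes named are all 10, DDX5, the gene of each of 9 program lists with the largest absolute difference and a fixed set (CTNNB1, CTNNA1, HDAC1, CTBP1, EPCAM, GFAP, NES, FN1, TCF4, GSK3B), with the 3 genes closest to CDH11. Outside this rule, CDH12, CDH15, ACTA2, TAGLN, CNN1, CALD1, TPM1, TPM2, USP27X, MIR200B, MIR200C and the cell type markers were named after their values were seen. List genes with no probe set of 1 symbol, among them FOXC1, CDH4, CTNND1, OCLN, ESRP1, BMI1 and PAK1, were not analysed here. Alternatives covered scaling, probe set choice, a filter on dim genes, the variance model, array weights, a replicate block, the threshold and leaving out each array.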

Additional observations from a re-analysis of the deposited data

How the results depend on the processing

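Under every alternative run, none of the genes tested and none of the 10 genes passed the threshold. At an unadjusted p under 0.05 the count of the 10 was 0 with wild-type replicate 1 or 2 left out and with array weights, 1 (SNAI1) without knockdown replicate 2, and 2 under each other setting. Of 129 values of single genes under the alternatives, 117 kept their direction. The 12 that did not belong to CDH1, ZEB1 and ZEB2, whose differences are small against their errors. The 117 include settings that cannot change a difference, namely the replicate block, the variance model and the filter on dim genes. For genes with 1 probe set the mean over probe sets cannot change it either. CDH1 gave -0.013 with each array centred on its median, -0.014 after cyclic loess and -0.035 with array weights, and ran from -0.062 (without wild-type replicate 2) to 0.06 with 1 array left out. ZEB1 ran from -0.33 to 0.11 and ZEB2 from -0.04 to 0.295 with 1 array left out, and the other ZEB2 probe set gave -0.02. The cause was not tested. With array weights TWIST2 gave 0.21 (unadjusted p = 0.0617) and CDH11 -0.27 (unadjusted p = 0.103), by limma. SNAI2 and CDH1 have no value with the dimmest 40% of genes left out. With the replicate block, 0 genes passed and the count at an unadjusted p under 0.05 was 1149 against 937 without it. With it VIM gave -0.20 ± 0.12 and ZEB1 -0.06 ± 0.11 (SE). Deviations of arrays with the same number correlated with r = 0.27, -0.03 and 0.13 over all genes. Arrays of different numbers gave r from -0.25 to 0.17, so the replicate 1 arrays had the highest r. For single genes of the 10, the same-number r ran from -0.98 (TWIST2) to 0.997 (ZEB2), over 3 numbers. These values do not settle whether the numbers pair the samples. The design notes name no block, so the main fit has none. The number of arrays, and the missing detection calls for dim probe sets, set what can be seen.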

Other observations

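TJP1, a tight junction scaffold and the epithelial gene with the largest difference, was at 4.96, 5.28 and 5.77 in knockdown cells, against 5.05, 5.92 and 5.93 in wild-type cells. Like ZEB1 and ZEB2 it was lowest on the replicate 1 array of each group, and its log2 difference was -0.30 ± 0.25 (SE, adjusted p = 0.912, limma). This likeness was noticed after the values were seen and was not tested.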
